A study of Homo sapiens with 12 samples.

Results

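The genes described here carry tryptophan into kynurenine and beyond, load tryptophan onto tRNA, or can answer to kynurenine. They were followed in the human bladder cancer cell line HT1376. They are IDO1, IDO2, TDO2, WARS1 (listed under its older symbol WARS), KYNU, KMO, AFMID, AHR, CYP1A1 and CYP1B1. They were chosen by name from what is known of the pathway, with earlier results of these data known. Each of the 10 symbols matched 1 of the 60666 rows of the count table. RNA-seq counts came from 12 libraries of 2 clonal lines, each with and without interferon gamma (IFNγ). HT1376 CT, which the labels call wild type, is a control clone that received a CRISPR guide against luciferase. HT1376 FOXP3 KO is a clone edited with CRISPR/Cas9 guides against exon 2 of FOXP3, the gene of a forkhead transcription factor. Untreated cells of both lines were compared with cells kept for 48 hours in 100 ng/mL IFNγ, and each of these 4 groups had 3 libraries. Each line grew from a single cell, so that loss of FOXP3 and any other difference between the clones cannot be told apart.

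Tryptophan has several fates in a cell. Tryptophanyl-tRNA synthetase (WARS1) loads it onto tRNA for protein synthesis. Indoleamine 2,3-dioxygenase (IDO1, with its relative IDO2) and tryptophan 2,3-dioxygenase (TDO2) open its indole ring, and the formamidase AFMID releases kynurenine. On the way to NAD, KMO hydroxylates kynurenine and kynureninase (KYNU) then cleaves the product. KYNU can also cleave kynurenine itself, off that way. Kynurenine and related compounds can also bind the aryl hydrocarbon receptor (AHR), a transcription factor whose best known targets are the cytochrome P450 genes CYP1A1 and CYP1B1. IDO1 and WARS1 are textbook IFNγ-inducible genes, and IDO1 is studied in tumours because tryptophan loss and kynurenine restrain T cells.

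The libraries held 4490684 to 39270042 counts on genes, and replicate 12 had the lowest total of each group. No label says whether replicates 11, 12 and 13 were separate cultures, so p-values measure only the spread between these libraries. FOXP3 had 0 counts in 8 of 12 libraries and at most 3 in any, which is too few to check the labels of the lines. Of 11 epithelial and urothelial markers, 10 exceeded 3 counts in some library, and their summed level was 4015 to 5185 CPM (CPM are counts scaled to a common library total) across all libraries. Keratins carried most of that sum. Between the lines, EPCAM (log2 difference -1.92 ± 0.15 untreated, -1.73 ± 0.21 under IFNγ) and CDH1 (-0.65 ± 0.12 and -0.52 ± 0.12) were lower and KRT7 (0.95 ± 0.18 and 1.52 ± 0.20) higher in HT1376 FOXP3 KO in both conditions, and untreated GATA3 was lower (-0.68 ± 0.11) and TP63 higher (0.60 ± 0.16), by edgeR's quasi-likelihood test. The uroplakin UPK3A was listed at 0 throughout and UPK2 was below 1 CPM. The 6 leukocyte markers summed to 0.627 to 3.01 CPM, with CD68 at 0. The 3 endothelial markers summed to 0.107 to 1.83 CPM. Fibroblast markers summed to 44.3 to 62.4 CPM in untreated HT1376 CT and to 21.9 to 31.1 CPM after IFNγ, without overlap. COL1A1 was called lower with IFNγ in that line (log2 -0.72 ± 0.15, adjusted p = 0.0147, edgeR's quasi-likelihood test). In HT1376 FOXP3 KO the fibroblast sums were 384 to 567 CPM untreated and 346 to 495 CPM after IFNγ. There COL1A2 and LUM made up most of the sum, and COL1A1 was lower than in HT1376 CT. These epithelial and fibroblast values move with the line, and the fibroblast sum moves with IFNγ in HT1376 CT too. Their part in the differences between lines and in the IFNγ effects was not tested.

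Levels are given as normalized CPM, which are CPM after scaling of the library totals by TMM (trimmed mean of M-values) factors. In bulk RNA, fewer cells that express a gene and less RNA per cell cannot be told apart. Between genes, levels were compared per kilobase of exon, with the exons of all annotated transcripts merged. KYNU has 17442 such bases and IDO1 3488, so the scale places genes with long alternative transcripts low. On this scale AHR led in untreated HT1376 CT with 27.5 ± 1.06 normalized CPM per kilobase (SD, n = 3). CYP1A1 (12.0 ± 3.38) and WARS1 (11.8 ± 2.25) came next with overlapping ranges. In untreated HT1376 FOXP3 KO the order was CYP1A1 (39.6 ± 11.2), AHR (19.4 ± 4.81) and WARS1 (12.6 ± 0.273), and the 3 ranges did not overlap. With IFNγ, WARS1 rose to first place in both lines. It reached 762 ± 40.3 in HT1376 CT and 296 ± 19.8 in HT1376 FOXP3 KO, or 90.6% and 79.6% of the summed level of the 10 genes. IDO1 stood at 29.2 ± 8.15 in IFNγ-treated HT1376 CT, with a range that overlapped that of AHR (32.7 ± 3.91). In the treated HT1376 FOXP3 KO libraries IDO1 was behind CYP1A1 and AHR at 4.14 ± 0.704, overlapping CYP1B1 (4.08 ± 0.207). KMO, TDO2 and IDO2 were below 0.3 on this scale in each group.

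**Figure D1:**
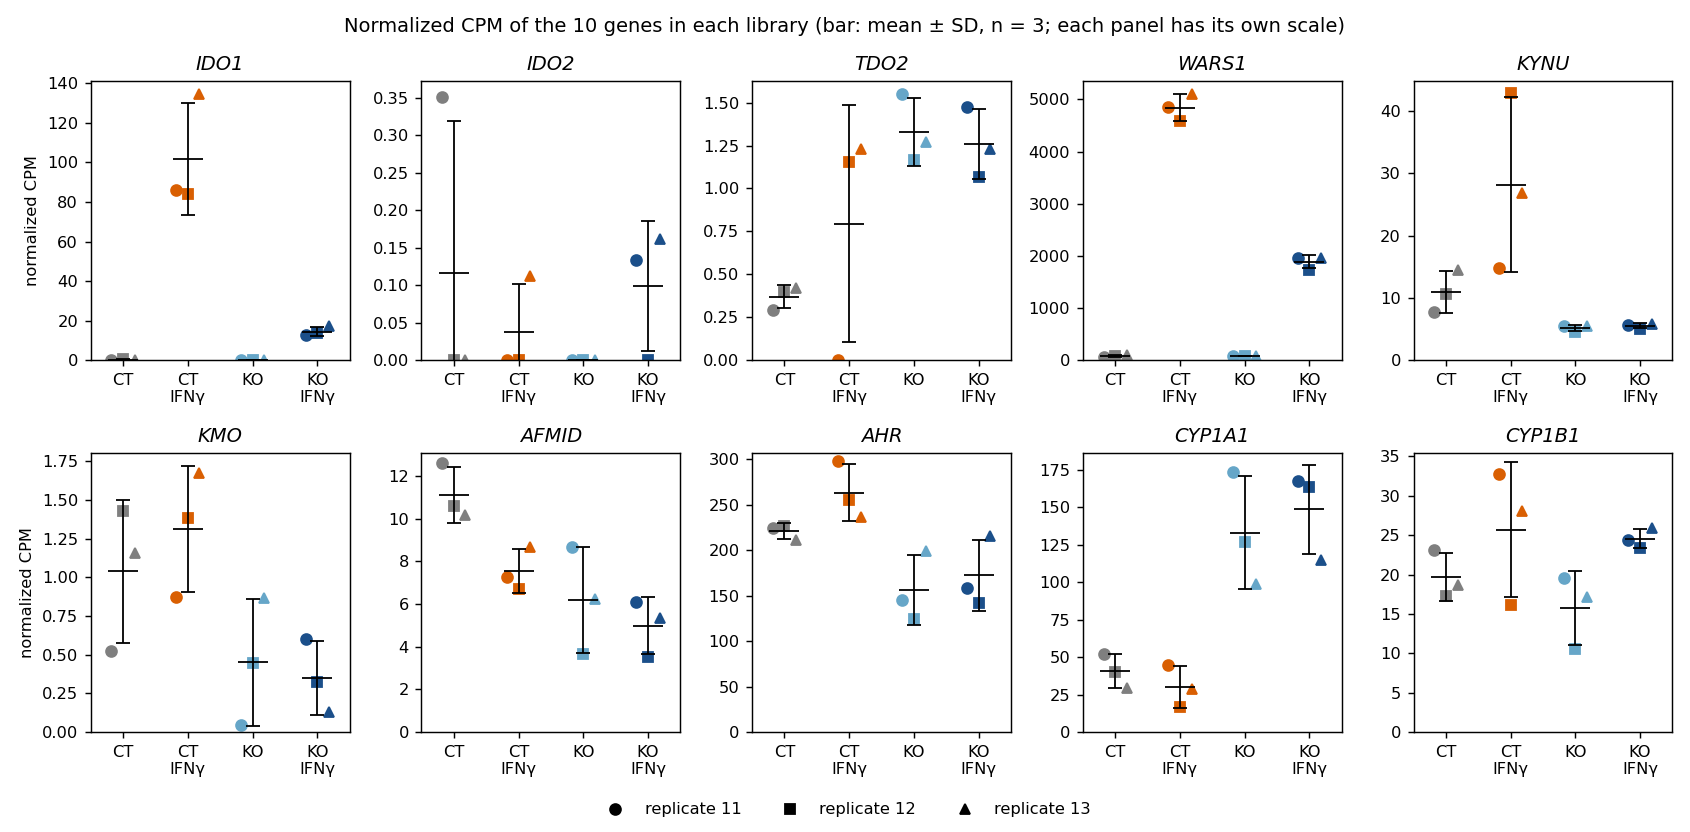
Normalized CPM (linear axis from 0, its own scale in each panel) of the 10 genes in every library, with replicates 11, 12 and 13 as circles, squares and triangles and the mean ± SD of 3 libraries in black. WARS1 and IDO1 rise with IFNγ in both lines and the treated HT1376 CT libraries stand above the treated HT1376 FOXP3 KO libraries, whereas CYP1A1 is higher in all 6 HT1376 FOXP3 KO libraries than in any HT1376 CT library.

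Groups were compared with edgeR's quasi-likelihood test on genes with at least 10 counts in the libraries fitted, and a gene was called at a Benjamini-Hochberg adjusted p under 0.05 over all genes tested. The ± on a log2 fold change is its absolute value divided by the square root of the test's F statistic. It is an approximate standard error (SE), and can be too small where counts are few. IDO2 was too low to be tested between any pair of groups, which left 9 of the 10 genes. With IFNγ, IDO1, WARS1 and KYNU rose in HT1376 CT, where 3.53% of all genes tested were called higher. IDO1 and WARS1 rose in HT1376 FOXP3 KO, where 0.978% were called higher. Between the untreated lines, CYP1A1 and TDO2 were higher in HT1376 FOXP3 KO (14.0% of all genes called higher), and AHR, KYNU and AFMID were lower (18.2% called lower). Under IFNγ, CYP1A1 was higher in HT1376 FOXP3 KO (13.2% called higher), and IDO1, WARS1, KYNU and AHR were lower (15.7% called lower). The 5 of 9 called in each comparison of the lines are to be read against these high shares over all genes. Without replicate 12 of each group, 8 of the genes could be tested between the untreated lines, and CYP1A1 and TDO2 were called higher (14.4% of all genes) and KYNU lower (17.8% of all genes). The difference in the IFNγ effect between the lines was tested over all 12 libraries as the interaction of line and treatment. It was called for WARS1 alone of the 10, against 0.108% of all genes called in that direction. A second fit of the IFNγ effects took the replicate number as a block. It called 8.67% of all genes higher and 9.86% lower in HT1376 CT, and 3.92% higher and 1.60% lower in HT1376 FOXP3 KO, and calls of the block are to be read against these larger shares. For the interaction, a block within each line called 2.69% of all genes higher and 2.06% lower in HT1376 FOXP3 KO. With 1 block for each number across both lines these shares were 0.525% and 0.683%.

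**Figure D2:**
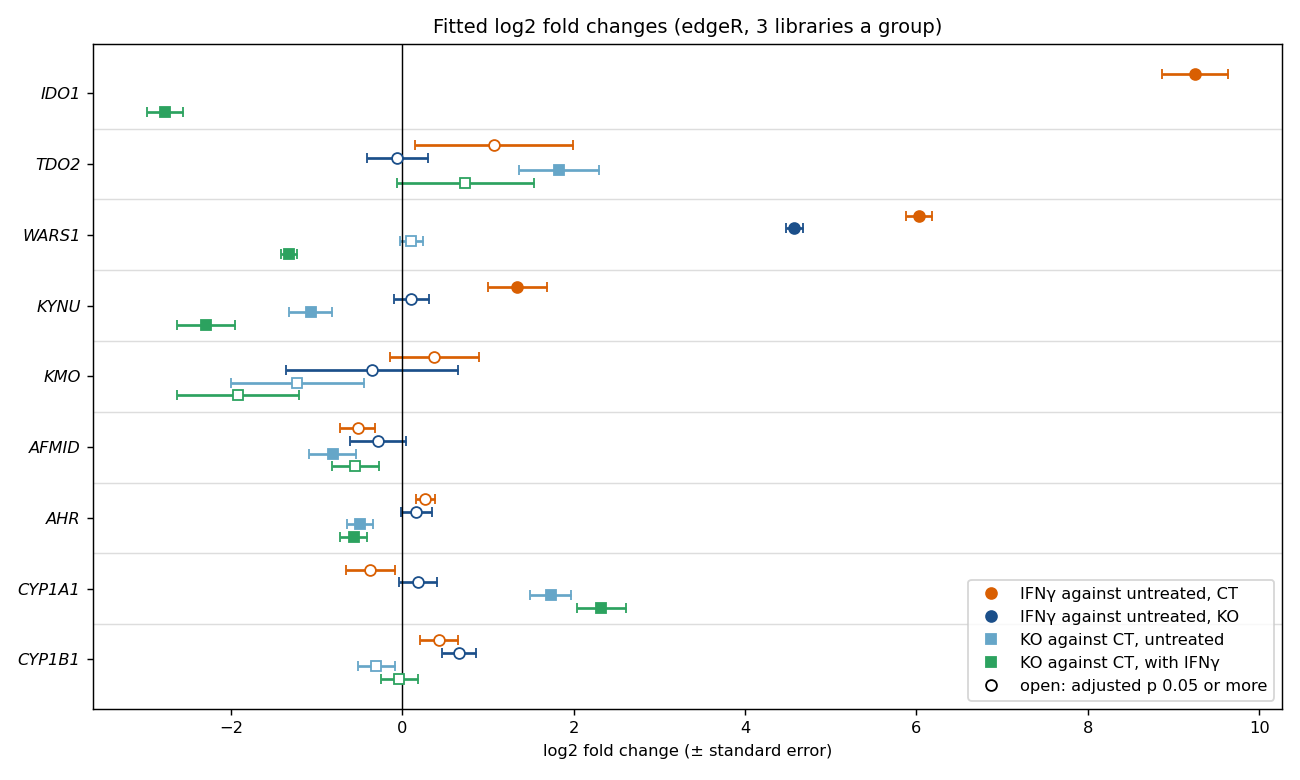
Log2 fold changes with standard errors (edgeR, 3 libraries a group) of 9 genes in 4 comparisons, with filled symbols for an adjusted p under 0.05. IDO1 is shown only where both groups had more than 3 counts in some library, WARS1 lies far right for IFNγ in both lines, and CYP1A1 lies right for HT1376 FOXP3 KO against HT1376 CT.

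IDO1 (ENSG00000131203, on chromosome 8) went from near absence to a clear signal with IFNγ. Untreated HT1376 CT had 0, 4 and 7 counts in replicates 11, 12 and 13, and treated HT1376 CT had 890, 365 and 2407. Untreated HT1376 FOXP3 KO had 1, 0 and 0 counts, and the treated line had 187, 127 and 531. In normalized CPM the treated libraries were at 86.3, 84.2 and 135 in HT1376 CT (mean 102 ± 28.4, n = 3) and at 12.5, 13.6 and 17.2 in HT1376 FOXP3 KO (mean 14.4 ± 2.46). Every treated library was above every untreated one, and the treated groups did not overlap each other. In HT1376 CT the rise was 9.25 ± 0.39 (SE) on the log2 scale, with an adjusted p of 4.29e-08 by edgeR's quasi-likelihood test. Its size rests on 11 counts in the untreated group, so that this approximate SE may be too small. Untreated HT1376 FOXP3 KO was at or below 3 counts per library, the limit that a count of 0 allows, so the rise is given as at least 75.9-fold (adjusted p = 6.07e-06). Under IFNγ, IDO1 was lower in HT1376 FOXP3 KO by a log2 fold change of -2.77 ± 0.21 (adjusted p = 3.00e-06), which is 0.147 times the level of HT1376 CT. Between the untreated lines no fold is given because both were near the limit. Whether the IFNγ effect itself differed between the lines could not be estimated from these counts. The lower level in treated HT1376 FOXP3 KO is therefore a difference between treated groups.

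The other enzymes of the first step stayed low. IDO2, which lies beside IDO1 on chromosome 8, had 6, 0 and 0 counts in untreated HT1376 CT, 0, 0 and 2 after IFNγ, 0 in all 3 untreated HT1376 FOXP3 KO libraries, and 2, 0 and 5 after IFNγ. A count of 0 allows up to 0.129 to 0.269 CPM in those untreated libraries, by counting error only. TDO2 (ENSG00000151790, chr4:155854738-155920406, plus strand), a dioxygenase best known from liver, had 0.292, 0.397 and 0.420 CPM in untreated HT1376 CT and 1.55, 1.16 and 1.27 in untreated HT1376 FOXP3 KO. The untreated groups did not overlap, at a log2 difference of 1.83 ± 0.46 (adjusted p = 0.0115, edgeR's quasi-likelihood test). These are 5, 5 and 16 counts against 36, 13 and 22, and without HT1376 FOXP3 KO replicate 11 the adjusted p was 0.0503. After IFNγ, TDO2 was at 0, 1.15 and 1.23 CPM in HT1376 CT and at 1.47, 1.07 and 1.23 in HT1376 FOXP3 KO, and no IFNγ effect was called in either line.

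WARS1 (ENSG00000140105, chr14:100333790-100376805, minus strand) had the most counts of the 10 genes after IFNγ. Untreated HT1376 CT was at 62.8, 71.0 and 90.7 CPM and treated HT1376 CT at 4850, 4585 and 5097 (mean 4844 ± 256). Untreated HT1376 FOXP3 KO was at 81.2, 81.3 and 78.2 CPM and the treated line at 1957, 1737 and 1953 (mean 1882 ± 126). Untreated lines overlapped, and treated lines were far apart. The rise was 6.03 ± 0.15 in HT1376 CT (65.5-fold, adjusted p = 1.17e-09) and 4.57 ± 0.10 in HT1376 FOXP3 KO (23.8-fold, adjusted p = 7.91e-08) on the log2 scale. The IFNγ effect was smaller in HT1376 FOXP3 KO by 1.46 on the log2 scale (interaction -1.46 ± 0.17, adjusted p = 0.000804, edgeR's quasi-likelihood test). Between libraries with the same number, the log2 ratio of treated to untreated was 6.27, 6.01 and 5.81 in HT1376 CT and 4.59, 4.42 and 4.64 in HT1376 FOXP3 KO, with no overlap. The interaction was called without any single library too (adjusted p = 0.000123 to 0.0127). Under IFNγ the level in HT1376 FOXP3 KO was 0.401 times that in HT1376 CT (log2 -1.32 ± 0.09, adjusted p = 2.04e-06), whereas the untreated lines differed by 0.11 ± 0.14 (adjusted p = 0.603). Of the exon bases of WARS1, 10.6% are overlapped by WDR25 and another gene on the opposite strand, and the strand setting of the counting is not stated.

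RefSeq promoter windows (GRCh38.p14, 250 bases before to 50 after a start) were found for 7 of the 10 genes, with 2 starts for WARS1. They were searched on both strands for the interferon-stimulated response element GAAANNGAAA and the gamma-activated site TTCNNNGAA, in which N is any base. WARS1 is shown because it had the largest rise of the genes with a window. At the start nearer to the coding sequence, 980 bases from the other, both motifs occurred, 55 and 142 bases upstream of the first transcribed base. The 30 bases around each match are given below in the direction of the gene, with the matching letters in capitals, at chr14:100375383-100375412 and chr14:100375470-100375499 (minus strand).
WARS1 response element: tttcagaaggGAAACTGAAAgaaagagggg
WARS1 gamma-activated site: gctcaagtgtTTCTGAGAAtctgggtgatt
The response element letters occur in 3.574% and the gamma-activated site letters in 7.657% of the 35116 promoter windows of the table. The window of the other WARS1 start held neither. A match is a string of letters and not a measured binding site.

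The other cytosolic aminoacyl-tRNA synthetases load the remaining amino acids and were counted beside WARS1. Of these 19 genes, KARS1 (lysine) rose by 0.70 ± 0.09 and RARS1 (arginine) by 0.52 ± 0.09 on the log2 scale with IFNγ in HT1376 CT (3.53% of all genes called higher), and none was called lower. None was called in HT1376 FOXP3 KO by edgeR's quasi-likelihood test. Their median log2 fold change was 0.02 in HT1376 CT and 0.15 in HT1376 FOXP3 KO, beside -0.02 and -0.01 over all genes tested. With the replicate number as a block, 7 of 19 were called higher and 1 lower in HT1376 CT and 9 of 19 higher in HT1376 FOXP3 KO, where the block called 8.67%, 9.86% and 3.92% of all genes in those directions. WARS1 made up 1.46%, 1.69% and 1.86% of the summed per-kilobase level of the 20 synthetases in untreated HT1376 CT and 49.2%, 50.3% and 49.2% after IFNγ. In HT1376 FOXP3 KO its share was 2.14%, 2.4% and 1.95% untreated and 32.0%, 31.2% and 30.3% treated. It went from rank 17 of 20 to rank 1 in HT1376 CT and from 13 to 1 in HT1376 FOXP3 KO. Between the lines, 1 of the other 19 was higher and 7 lower in untreated HT1376 FOXP3 KO, and 1 was higher and 2 lower under IFNγ, beside 14.0% and 18.2% of all genes untreated and 13.2% and 15.7% under IFNγ. KARS1 was lower in both conditions (-0.54 ± 0.10 and -0.84 ± 0.11) and QARS1 (glutamine) higher in both (0.30 ± 0.10 and 0.46 ± 0.13). FARSA, a subunit of the phenylalanine enzyme (-0.77 ± 0.15), GARS1 (glycine, -0.45 ± 0.13) and IARS1 (isoleucine, -0.43 ± 0.13) were lower untreated, and RARS1 was lower under IFNγ (-0.44 ± 0.11).

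**Figure D3:**
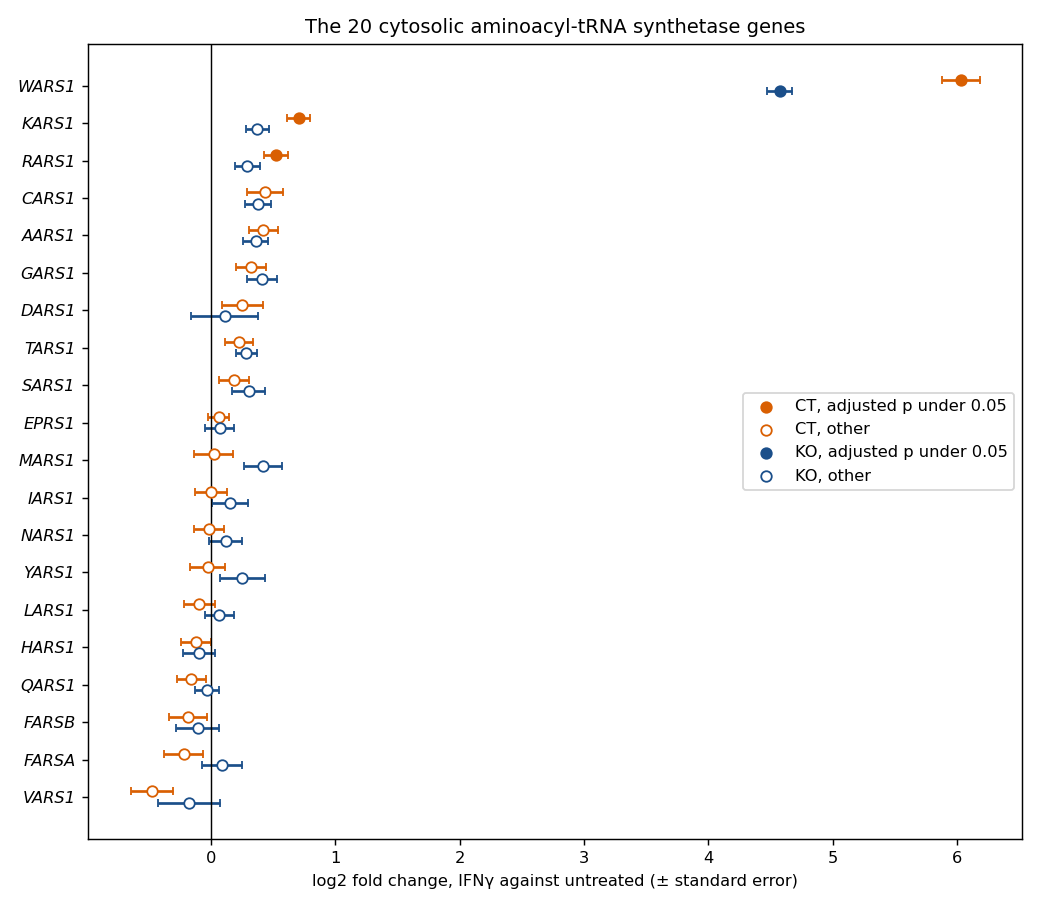
Log2 fold change of IFNγ-treated against untreated libraries, with standard errors, for the 20 cytosolic aminoacyl-tRNA synthetase genes in HT1376 CT (orange) and HT1376 FOXP3 KO (blue), filled where the adjusted p was under 0.05. WARS1 stands at 6.03 and 4.57, and the other 19 genes lie between -1 and 1.

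KYNU (ENSG00000115919, chr2:142877657-143055833, plus strand), the kynureninase, differed between the lines in both conditions. It was at 7.71, 10.6 and 14.5 CPM in untreated HT1376 CT and at 14.8, 42.9 and 26.8 after IFNγ. In HT1376 FOXP3 KO it was at 5.51, 4.57 and 5.47 CPM untreated and at 5.63, 5.03 and 5.80 after IFNγ. The highest HT1376 FOXP3 KO library was below the lowest HT1376 CT library. KYNU was lower in HT1376 FOXP3 KO by a log2 fold change of -1.07 ± 0.25 untreated (adjusted p = 0.00799) and of -2.29 ± 0.34 under IFNγ (adjusted p = 0.000410), by edgeR's quasi-likelihood test. Leaving out HT1376 CT replicate 13 raised the adjusted p of the untreated difference to 0.0573. With IFNγ, KYNU rose by 1.34 ± 0.34 in HT1376 CT (adjusted p = 0.0432), and the groups were separated by a narrow margin. That call held without treated replicate 11 and was lost without any other single library (adjusted p up to 0.152). With the replicate number as a block the rise was 1.26 ± 0.15 (adjusted p = 2.06e-16), and all 3 numbered pairs rose, with log2 ratios of 0.95, 2.02 and 0.89. The change in HT1376 FOXP3 KO was 0.10 ± 0.21 and was not called. The difference in the IFNγ effect was -1.25 ± 0.44 with an adjusted p of 0.676, and with a block within each line it was -1.17 ± 0.25 with an adjusted p of 0.000143. With 1 block for each number across both lines it was -1.23 ± 0.34 and was not called (adjusted p = 0.0792).

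The KYNU promoter window held the gamma-activated site letters 34 bases upstream of the start and again just after it, and no response element match. It also held the forkhead motif TGTTTAC 225 bases upstream, searched because FOXP3 was the edited gene. Every TGTTTAC holds TAAACA on the other strand, so the TAAACA match there is not a separate site. The gamma-activated site and TGTTTAC stretches are shown because KYNU differed between the lines and with IFNγ in HT1376 CT. They lie at chr2:142877620-142877649 and chr2:142877428-142877457 (plus strand), with matches in capitals.
KYNU gamma-activated site: gtctgagcagTTCTTTGAAtttctcaccct
KYNU forkhead motif: ggacaagtgtgTGTTTACctgagtttaaag
TGTTTAC occurs in 3.423% and TAAACA in 12.316% of all windows. Of the other windows of the 10 genes, those of KMO and AFMID held TAAACA and none held TGTTTAC.

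AFMID and KMO, on either side of kynurenine, were low, and neither was called with IFNγ in either line. AFMID (ENSG00000183077, chr17:78187358-78207702, plus strand) was at 12.6, 10.6 and 10.1 CPM in untreated HT1376 CT and at 7.27, 6.69 and 8.66 after IFNγ. The groups did not overlap, but the log2 change of -0.52 ± 0.20 was not called (adjusted p = 0.204, and 0.0421 with the replicate block). The knockout clone was at 8.65, 3.67 and 6.22 CPM untreated and at 6.10, 3.53 and 5.35 after IFNγ. AFMID was lower in untreated HT1376 FOXP3 KO than in untreated HT1376 CT (-0.81 ± 0.28, adjusted p = 0.0451 by edgeR's quasi-likelihood test). That call held without HT1376 FOXP3 KO replicate 11 and was lost without any other single library (adjusted p up to 0.151). KMO (ENSG00000117009, chr1:241532134-241595642, plus strand), the monooxygenase that hydroxylates kynurenine, had 1 to 44 counts in a library. It was at 0.873, 1.38 and 1.68 CPM in treated HT1376 CT and at 0.603, 0.321 and 0.130 in treated HT1376 FOXP3 KO, without overlap, and the log2 difference of -1.92 ± 0.71 missed the threshold (adjusted p = 0.0651). It was called lower with edgeR's filterByExpr (adjusted p = 0.0425), with the bias-adjusted deviance (adjusted p = 0.0215) and without treated HT1376 FOXP3 KO replicate 11 (adjusted p = 0.0488). Its log2 difference between the treated lines ranged from -2.66 to -1.39 when 1 library was left out. OPN3, on the opposite strand, overlaps 28.4% of the exon bases of KMO.

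A further 13 genes lead from kynurenine to kynurenic acid, quinolinate and NAD, or salvage NAD. With IFNγ, NAMPT, the rate-limiting enzyme of NAD salvage from nicotinamide, rose in HT1376 CT by 0.74 ± 0.14 (adjusted p = 0.0102, edgeR's quasi-likelihood test) and was the single call among 12 tested, beside 3.53% of all genes called higher. It went from 240, 313 and 284 CPM to 379, 536 and 461, without overlap. In HT1376 FOXP3 KO none of 11 tested was called. The replicate block called NAMPT, NMNAT2 and KYAT3 in HT1376 CT and NAMPT and NMNAT2 in HT1376 FOXP3 KO, all higher with IFNγ, beside 8.67% and 3.92% of all genes called higher with the block. In the untreated knockout clone 2 of 11 were higher than in HT1376 CT and 5 lower, beside 14.0% and 18.2% of all genes. The lower ones included NAPRT (-2.27 ± 0.15), NMNAT2 (-1.44 ± 0.14), NAMPT (-1.38 ± 0.15) and GOT2 (-0.87 ± 0.12), which act in NAD synthesis from nicotinic acid, NAD assembly, salvage, and transamination. Under IFNγ 1 was higher and 5 lower (13.2% and 15.7% of all genes), with the same 4 genes at the smallest p-values. The median log2 fold change of the list between the lines was -0.43 untreated and -0.26 under IFNγ, beside -0.02 and 0.02 over all genes tested.

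AHR (ENSG00000106546, chr7:16916359-17346152, plus strand) was expressed in every library. It was at 225, 227 and 211 CPM in untreated HT1376 CT and at 298, 256 and 236 after IFNγ. The knockout clone was at 145, 124 and 199 CPM untreated and at 159, 142 and 216 treated. Replicate 13 was the highest of its group in HT1376 FOXP3 KO under both conditions. AHR was lower in HT1376 FOXP3 KO by a log2 fold change of -0.49 ± 0.16 untreated (adjusted p = 0.0330) and of -0.57 ± 0.16 under IFNγ (adjusted p = 0.0192), by edgeR's quasi-likelihood test. The untreated call held without HT1376 FOXP3 KO replicate 13 and was lost without any other single library (adjusted p up to 0.132). The call under IFNγ was lost without replicate 11 of either line (adjusted p = 0.0706 and 0.0723). With IFNγ the log2 change was 0.27 ± 0.11 in HT1376 CT (adjusted p = 0.216, and 0.00142 with the replicate block) and 0.17 ± 0.18 in HT1376 FOXP3 KO. In GENCODE 44, 35.6% of its exon bases are overlapped by other genes.

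CYP1A1 (ENSG00000140465, chr15:74719542-74725536, minus strand), an AHR target that oxidizes polycyclic compounds, was higher in HT1376 FOXP3 KO although AHR was lower there. Untreated HT1376 CT was at 52.1, 39.9 and 29.4 CPM and untreated HT1376 FOXP3 KO at 173, 127 and 98.8. After IFNγ, HT1376 CT was at 45.1, 17.1 and 28.6 CPM and HT1376 FOXP3 KO at 168, 164 and 115. The difference was 1.73 ± 0.23 on the log2 scale untreated (3.32-fold, adjusted p = 0.000219) and 2.32 ± 0.28 under IFNγ (5.0-fold, adjusted p = 0.000112), by edgeR's quasi-likelihood test. Both calls held without any single library, with log2 differences of 1.53 to 2.0 untreated and of 2.08 to 2.71 under IFNγ. With IFNγ the log2 change was -0.37 ± 0.29 in HT1376 CT (adjusted p = 0.567) and 0.18 ± 0.22 in HT1376 FOXP3 KO (adjusted p = 0.999). The replicate block called both, lower in HT1376 CT (adjusted p = 0.00972) and higher in HT1376 FOXP3 KO (adjusted p = 0.0489). Leaving out untreated replicate 13 brought the change in HT1376 FOXP3 KO to about 0. The block within each line also called the difference in the IFNγ effect (0.53 ± 0.12, adjusted p = 0.000646), which had an adjusted p of 0.911 without it and of 0.303 with 1 block for each number across both lines (0.54 ± 0.20). The numbered pairs in HT1376 CT had log2 ratios of -0.21, -1.22 and -0.04, so that the shallow replicate 12 carried most of the fall.

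The promoter window of CYP1A1 was searched for GCGTG, the core of the element that AHR binds with its partner ARNT. It is shown because CYP1A1 was higher in HT1376 FOXP3 KO in both conditions. The match lay 57 bases upstream of the start, at chr15:74725568-74725597 (minus strand, match in capitals), and 36.542% of all windows hold these 5 letters. They also occur in the windows of AHR and AFMID and in both windows of WARS1, and not in those of KMO, KYNU and TDO2.
CYP1A1 core element: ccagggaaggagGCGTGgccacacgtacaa
No window of CYP1B1, IDO1 or IDO2 was matched in the table.

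CYP1B1 (ENSG00000138061, chr2:38066973-38109902, minus strand), the related P450 of many extrahepatic tissues, was not called between the lines. It was at 23.1, 17.3 and 18.6 CPM in untreated HT1376 CT, 32.8, 16.2 and 28.1 after IFNγ, 19.6, 10.6 and 17.1 in untreated HT1376 FOXP3 KO and 24.4, 23.4 and 25.9 after IFNγ. The lines overlapped in both conditions, at log2 differences of -0.30 ± 0.22 untreated and -0.04 ± 0.22 under IFNγ (adjusted p = 0.327 and 0.924, edgeR's quasi-likelihood test). In HT1376 FOXP3 KO every treated library was above every untreated one, at 0.66 ± 0.20 (adjusted p = 0.428), and the replicate block called this rise (adjusted p = 2.65e-06). The rise of 0.42 ± 0.22 in HT1376 CT was called with the block alone (adjusted p = 0.0121). In GENCODE 44, CYP1B1-AS1, RMDN2 and RMDN2-AS1 overlap 14.0% of its exon bases.

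**Figure D4:**
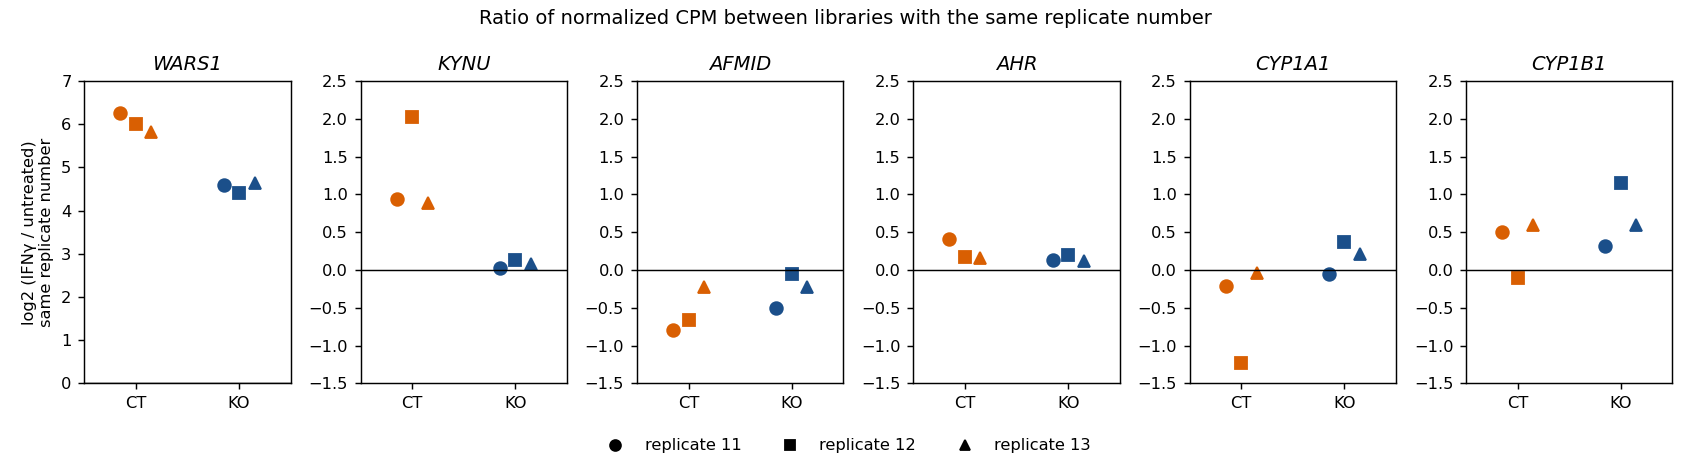
Log2 ratio of normalized CPM between the IFNγ-treated and the untreated library of the same replicate number, for 6 genes in HT1376 CT (orange) and HT1376 FOXP3 KO (blue). WARS1 has its own axis from 0 to 7, the KYNU ratios of 0.89 to 2.02 in HT1376 CT lie above all those in HT1376 FOXP3 KO, and CYP1A1 replicate 12 lies at -1.22 in HT1376 CT.

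Of 13 further genes of the AHR complex and its targets, none was called with IFNγ in either line by edgeR's quasi-likelihood test. At an unadjusted p under 0.05, 4317 of 24416 genes in HT1376 CT and 1294 of 24131 in HT1376 FOXP3 KO passed. From this list TIPARP and NQO1 (higher) and HSP90AB1 (lower) passed in HT1376 CT, and none passed in HT1376 FOXP3 KO. The replicate block called 2 higher and 2 lower of 10 tested in HT1376 CT (8.67% and 9.86% of all genes) and 1 lower of 11 tested in HT1376 FOXP3 KO (1.60% of all genes), which was HSP90AB1. Without IFNγ, 2 of 11 tested were higher in HT1376 FOXP3 KO than in HT1376 CT and 5 were lower, where 14.0% and 18.2% of all genes were called. CYP1A2, which shares its regulatory region with CYP1A1, was among the higher, at 0, 0.159 and 0.158 CPM in HT1376 CT and 1.94, 0.716 and 0.288 in HT1376 FOXP3 KO (3.11 ± 0.92, adjusted p = 0.0245). ARNT, the dimer partner of AHR, was higher too (0.54 ± 0.11). ARNT2, its relative, was lower (-2.82 ± 0.42), as were the AHR targets TIPARP (-0.69 ± 0.11) and NQO1 (-0.62 ± 0.12), and the chaperone HSP90AB1 (-0.82 ± 0.13). Under IFNγ 2 were higher and 4 lower (13.2% and 15.7% of all genes), with NQO1 (-0.79 ± 0.11), TIPARP (-0.97 ± 0.15), ARNT2 (-2.42 ± 0.43) and ARNT (0.69 ± 0.13) at the smallest p-values. Of the AHR targets measured, CYP1A1 and CYP1A2 were thus called higher and TIPARP and NQO1 lower in HT1376 FOXP3 KO, whereas CYP1B1, AHRR (1.22 ± 0.83 untreated, 0.53 ± 0.77 under IFNγ) and UGT1A6 (0.20 ± 0.22 and 0.38 ± 0.17) were not called in either condition.

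Among 8 tryptophan transporters, SLC7A5, the large neutral amino acid carrier, fell in HT1376 CT with IFNγ. It went from 1241, 1375 and 1517 CPM to 844, 627 and 865 (log2 -0.81 ± 0.13, adjusted p = 0.00240, edgeR's quasi-likelihood test). Untreated HT1376 FOXP3 KO was already lower, at 737, 680 and 655 CPM, and its treated libraries were at 638, 594 and 746. SLC7A5 was the single call of 6 tested in HT1376 CT, where 1.82% of all genes were called lower, and none was called in HT1376 FOXP3 KO. The replicate block added SLC3A2, its heavy chain, and SLC36A4 in HT1376 CT, both lower, and called SLC1A5 higher in HT1376 FOXP3 KO, where the block called 9.86% and 3.92% of all genes in those directions. Between the untreated lines SLC7A8 was higher (2.88 ± 0.19) and 4 of 6 were lower in HT1376 FOXP3 KO (14.0% and 18.2% of all genes), among them SLC7A5 (-0.99 ± 0.11), SLC36A4 (-0.88 ± 0.13) and SLC3A2 (-0.70 ± 0.11). Under IFNγ SLC7A8 was higher (2.84 ± 0.27) and SLC36A4 lower (-0.77 ± 0.16), or 1 of 6 in each direction beside 13.2% and 15.7% of all genes. Of 10 enzymes of other tryptophan routes, at most 5 had enough counts to be tested. Without the block the mitochondrial synthetase WARS2 was the single call, 1 of 4 tested, higher in HT1376 FOXP3 KO under IFNγ (0.56 ± 0.19, adjusted p = 0.0471), where 13.2% of all genes were called higher. The block called MAOA, a monoamine oxidase, lower with IFNγ in both lines, beside 9.86% of all genes in HT1376 CT and 1.60% in HT1376 FOXP3 KO. Between the lines it called WARS2 higher in HT1376 FOXP3 KO in both conditions and MAOA higher under IFNγ, where 15.9% of all genes untreated and 16.0% under IFNγ were called higher.

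The amino acid response, in which uncharged tRNA activates the kinase EIF2AK4 (GCN2) and raises ATF4 translation, was followed with 12 genes. With IFNγ, DDIT3 (1.61 ± 0.26, adjusted p = 0.00276) and ATF3 (1.09 ± 0.19, adjusted p = 0.00552) rose in HT1376 CT, beside 3.53% of all genes called higher, and none was called lower. ATF3 was at 31.3, 51.6 and 39.8 CPM untreated and 68.5, 99.0 and 89.9 treated in HT1376 CT, and at 52.7, 78.6 and 63.1 and then 90.1, 121 and 92.4 in HT1376 FOXP3 KO (0.66 ± 0.18, adjusted p = 0.304). No gene of the list was called in HT1376 FOXP3 KO by edgeR's quasi-likelihood test, and 3 were called higher (ATF3, PHGDH and PSAT1) when replicate 12 was left out of both groups, where 1.28% of all genes were called higher. The replicate block called 7 higher and 2 lower in HT1376 CT and 8 higher in HT1376 FOXP3 KO, beside 8.67%, 9.86% and 3.92% of all genes. Over the 12 genes, the median of the IFNγ log2 fold changes was 0.30 in HT1376 CT and 0.49 in HT1376 FOXP3 KO. Over all genes tested it was -0.02 and -0.01. Whether the 2 list medians differ was not tested. Between the lines, 3 were higher and 3 lower in untreated HT1376 FOXP3 KO (14.0% and 18.2% of all genes), and 2 were higher and 2 lower under IFNγ (13.2% and 15.7% of all genes). EIF2AK4 (1.22 ± 0.13 untreated, 1.82 ± 0.17 under IFNγ) and the pseudokinase TRIB3 (0.62 ± 0.12 and 0.51 ± 0.15) were higher in both conditions, and ATF3 (0.67 ± 0.19) untreated. ATF4 (-0.70 ± 0.11 and -0.64 ± 0.11) and the cystine carrier SLC7A11 (-1.52 ± 0.23 and -1.09 ± 0.31) were lower in both, and the lipoprotein receptor VLDLR (-2.96 ± 0.46) untreated.

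Of 13 genes of IFNγ signalling, 10 rose with IFNγ in HT1376 CT (3.53% of all genes) and 6 in HT1376 FOXP3 KO (0.978% of all genes), and none was called lower. The replicate block called 10 higher and 1 lower (IFNGR1, a receptor chain) in HT1376 CT and 8 higher in HT1376 FOXP3 KO, beside 8.67%, 9.86% and 3.92% of all genes. IRF1, the factor that binds response elements of the kind searched above, rose from 56.8, 67.7 and 63.4 CPM to 872, 855 and 910 in HT1376 CT and from 55.4, 45.5 and 52.7 to 375, 371 and 387 in HT1376 FOXP3 KO. Its IFNγ effect was smaller in HT1376 FOXP3 KO (interaction -0.93 ± 0.15, adjusted p = 0.0171 by edgeR's quasi-likelihood test), and it was the single gene of this list with a called interaction without the block. The transcription factor STAT2 rose by 2.42 ± 0.13 on the log2 scale in HT1376 CT and by 1.77 ± 0.11 in HT1376 FOXP3 KO, and SOCS1, a feedback inhibitor of JAK kinases, by 2.02 ± 0.26 and 2.22 ± 0.27. Without IFNγ the knockout clone had 2 of 12 tested called higher than HT1376 CT and 7 lower (14.0% and 18.2% of all genes), and under IFNγ 1 of 13 was higher and 7 lower (13.2% and 15.7% of all genes). Of the genes that transmit the signal at the receptor, JAK2 and IFNGR2 were lower in untreated HT1376 FOXP3 KO by log2 fold changes of -1.06 ± 0.15 and -1.22 ± 0.15, and also under IFNγ (-1.70 ± 0.15 and -1.28 ± 0.16). JAK1, the other kinase of the receptor, was higher in both conditions (0.54 ± 0.11 and 0.56 ± 0.12). STAT3 was lower in both (-0.63 ± 0.11 and -0.74 ± 0.12), and IFNGR1 was lower untreated (-0.56 ± 0.12).

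The interaction gained calls in these lists with the replicate block. The block within each line, which called 2.69% of all genes higher and 2.06% lower, called 5 of the 13 genes of IFNγ signalling, all with a lower IFNγ effect in HT1376 FOXP3 KO, among them IRF1, STAT2, SOCS3 and JAK2. Of the 12 genes of the amino acid response it called 4 higher and 3 lower, with EIF2AK4 at the smallest p. Of 7 transporters it called SLC7A5, SLC3A2 and SLC1A5 higher. NAMPT of 12 tested in the NAD list and TIPARP of 11 in the AHR list were called lower. Of the 19 synthetases MARS1 was called higher and KARS1 lower. With 1 block for each number across both lines, the calls in these lists were IRF1 and STAT2 (lower) and SLC7A5 and EIF2AK4 (higher).

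The genes whose log2 CPM ran most like a member's across the 12 libraries were ranked by Pearson's r among 17435 genes with a mean of at least 1 CPM in some group. The 12 points share 4 groups, so that r mostly follows the group means. For IDO1 the 5 nearest were APOL6, IRF1, TAP1, BTN3A2 and TRIM69 (r = 0.995 to 0.997). For WARS1 they were CD74, HLA-DQA1, HLA-DRB1, Z84484.1 and HLA-DOA (r = 0.994 to 0.998), and the HLA genes have close copies whose reads may be shared. IDO1 and WARS1 had r = 0.988 with each other. KYNU ran most like HES1, NFKB1, CGAS, RNASE7 and CARD17 (r = 0.961 to 0.969). AHR ran most like CCND2, AL591848.3, GDI2, LINC00472 and FEZ1 (r = 0.947 to 0.966), and CYP1A1 most like CFAP69, IFT57, PSMA3-AS1, AL022068.1 and AC005162.3 (r = 0.973 to 0.979). KYNU and CYP1A1 ran in opposite directions (r = -0.925), as did AHR and CYP1A1 (r = -0.787).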

How the data were processed

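RNA was prepared with KAPA RNA HyperPrep and RiboErase. The authors aligned reads with STAR 2.7.11a (submitters' processing notes) to GRCh38 with Ensembl 103, removed Mycoplasma reads with Kraken and deposited raw htseq-count counts per gene. The strand setting and the handling of multi-mapping reads are not given in the sources used here, so overlapping genes and close copies are uncertain. Groups followed the labels, and 0 columns were left out. Tests used edgeR 4.0.16 (R 4.3.3, quasi-likelihood, TMM, total of at least 10 counts, no block), after testing on simulated data. Alternatives included DESeq2 1.42.0, other filters, a replicate block and leaving out each library. Deviations from the group mean were correlated between same-numbered libraries of a line (r = 0.139 to 0.266, all over 0.1), so the block is given beside IFNγ effects it changed. Correlations used log2 CPM with a prior count of 2. Exons came from GENCODE 44 and promoters from RefSeq GRCh38.p14. All 10 members are named, and of the other lists the called genes with the smallest p (up to 4), with a few added where the text compares them, chosen after their values were seen. Members and lists were chosen with earlier results of these data known. A gene of the IFNγ signalling list is not reported here by name.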

Additional observations from a re-analysis of the deposited data

Results flagged for a closer look

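WARS1 rose less with IFNγ in HT1376 FOXP3 KO than in HT1376 CT, and the test of that difference itself passed. The IFNγ effect in HT1376 FOXP3 KO minus that in HT1376 CT was -1.46 on the log2 scale (adjusted p = 0.000804, edgeR's quasi-likelihood test for the interaction over 12 libraries), with the ratio lower in 3 of 3 numbered HT1376 FOXP3 KO pairs than in any HT1376 CT pair. The untreated lines overlapped, so the difference lay in the treated libraries. Each line is 1 clone, and the knockout and the clone cannot be told apart.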

How the results depend on the processing

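The calls of IDO1 and WARS1 with IFNγ in both lines, of both between the treated lines, of the WARS1 interaction, of CYP1A1 between the lines in both conditions and of KYNU between the treated lines held in every alternative and without each library. The calls of KYNU with IFNγ, of AHR between the lines in both conditions, and of AFMID, KYNU and TDO2 between the untreated lines depended on single libraries, as given with each gene. The call of KYNU with IFNγ was also lost with edgeR's filterByExpr (adjusted p = 0.063) and with the bias-adjusted deviance (adjusted p = 0.0587), that of AFMID with filterByExpr (adjusted p = 0.0553), and that of TDO2 in a fit of all 12 libraries (adjusted p = 0.0537). With the replicate block, 7 of the 10 genes were called for IFNγ in HT1376 CT (3 without it) and 4 in HT1376 FOXP3 KO (2 without it), and all genes called rose from 1307 to 4525 and from 237 to 1334. The interaction called 31 genes, and 336 with the block, 1320 with the block within each line (3 of the 10 genes), 151 with DESeq2, 294 without a filter (2 of the 10) and 49 without replicate 12 of each group, a setting chosen after seeing the data. Without a filter, 2248 genes were called for IFNγ in HT1376 CT. Between the untreated lines, 3 of the 10 were called without replicate 12 of each group (of 8 tested, beside 14.4% of all genes called higher and 17.8% lower). Leaving out 1 library gave 762 to 1201 genes for IFNγ in HT1376 CT, 15 to 33 for the interaction and 2 to 4 of the 10 genes between the untreated lines. Those fits of the untreated lines called from 5834 of 23717 to 7736 of 24874 genes tested, and the 2 to 4 are to be read against these shares. Between the lines, libraries of the same number were more weakly correlated than within a line (r = 0.0408 to 0.136). Libraries of other numbers had r = -0.114 to 0.0703. There the block raised all genes called from 8135 to 9258 untreated and from 7046 to 8287 under IFNγ, and changed no call of the 10 genes. No call reversed. Some uncalled log2 values changed sign when 1 library was left out. With IFNγ in HT1376 FOXP3 KO the ranges were -0.195 to 0.0695 for TDO2, -1.10 to 0.637 for KMO, -0.526 to 0.0346 for AFMID, -0.00300 to 0.361 for AHR and -0.000700 to 0.415 for CYP1A1. Between the treated lines CYP1B1 ranged from -0.250 to 0.159, and in the interaction KMO ranged from -1.47 to 0.361 and AHR from -0.235 to 0.136. The interaction of CYP1B1 was -0.0210 without replicate 12 of each group. The genes most like each of the 5 members ranked changed with Spearman's rho, which shared 0 to 3 of 5. Levels of IDO2, KMO and TDO2 are limited by depth.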
